A study of Mus musculus with 6 samples.

Results

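The pre-B cell receptor and the signalling proteins next to it were followed as 10 genes: Vpreb1, Vpreb2, Vpreb3 and Igll1 of the surrogate light chain group, the signalling chains Cd79a and Cd79b, the kinases Lyn, Syk and Btk, and the adaptor Blnk. Genes were chosen by name, and each was read from the probe set annotated to it. Of the 10, 9 were among the 19733 genes tested, each with 1 probe set assigned to that gene alone. For short, these 9 are called receptor genes below, the kinases and the adaptor included. No probe set of the table was annotated to Lyn, the Src-family kinase that first phosphorylates the receptor, and it is not analysed here.

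The cells were mouse bone marrow pre-B cells with floxed alleles of Ppp2r1a, the gene for the scaffold on which protein phosphatase 2A (PP2A) is built, transduced with the leukaemia oncogene BCR-ABL1. They then received Cre recombinase, which deletes the floxed gene (Cre, 3 arrays), or an empty vector (EV, 3 arrays). BCR-ABL1 and the floxed alleles were therefore shared by both groups, and no array held Cre-treated cells lacking them, so effects of Cre itself and of Ppp2r1a loss cannot be told apart. The repeats carry numbers only, so p-values measure a spread between arrays that may be technical. Mouse age, the time after transduction and any selection of transduced cells are not known here.

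The pre-B cell receptor is the first antigen receptor complex that a developing B cell puts on its surface. A newly rearranged mu heavy chain pairs with a surrogate light chain made of VpreB and lambda5 (the product of Igll1), and the complex signals through CD79A and CD79B, whose tails carry tyrosine motifs. Src-family kinases such as LYN phosphorylate these motifs, SYK docks on them, and SYK then acts through the adaptor BLNK and the kinase BTK on phospholipase C gamma 2. In normal development the signal drives a burst of division, silences the surrogate light chain genes and opens light chain rearrangement. Ppp2r1a and its partners form a phosphatase that acts on serine and threonine.

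Ppp2r1a itself was lower in the Cre arrays. It read 7.12, 6.98 and 6.92 in the Cre arrays, against 9.06, 9.05 and 9.06 in the EV arrays, on the log2 scale of expression levels on which every level below is given. The change, Cre minus EV, was -2.05 (SE 0.07; limma adjusted p = 1.203e-05). Of all 19733 genes, 689 (3.49%) were called changed at a limma adjusted p below 0.05. With any 1 array left out that count fell to 424 or fewer, and to 362 without EV replicate 2.

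The labelled cell type was set against its markers. Of 11 measured pre-B markers, 10 read above the highest array median (5.27) on every array, among them Pax5 (10.47 ± 0.04 in Cre and 10.39 ± 0.03 in EV; SD, n = 3 each). Of 9 T and NK cell markers and 6 erythroid and megakaryocyte markers, 0 did, and of 10 myeloid and 6 stromal markers 1 each did. Of 4 plasma cell markers 1 did, while 0 rose and 0 fell. Their sum on the linear scale was 198 to 232 in Cre arrays and 232 to 244 in EV arrays. Pre-B markers fell in 4 cases (Rag1, Rag2, Dntt and Sox4), and the sum of the list on the linear scale was 10300 to 10600 in Cre arrays and 11100 to 11200 in EV arrays. Mature B markers rose in 3 of 8 cases (Cd74, Cxcr5 and Ms4a1) and fell in 0, with sums of 520 to 567 in Cre arrays and 332 to 358 in EV arrays. Of these 8, 3 read above the highest array median on every array. Ms4a1 was not among those 3 (4.88 ± 0.14 in Cre and 3.46 ± 0.22 in EV). The part of these shifts in the receptor genes' levels was not tested. In bulk RNA such as this, fewer cells of a type and less RNA per cell cannot be told apart.

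Promoter sequence was available for 8 of the 9 measured genes, as RefSeq windows of build GRCm38.p6 that run from 250 bases before to 50 bases after a start site. Syk had 2 such windows, which made 9. Vpreb1 and Igll1 were listed side by side on chromosome 16 with 0 genes between them, and Vpreb2 lay on the same chromosome with 52 listed genes between it and Vpreb1. The other measured genes were on chromosomes 10 (Vpreb3), 7 (Cd79a), 11 (Cd79b), 13 (Syk), 19 (Blnk) and X (Btk).

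The stretches in front of Vpreb1 and Vpreb2 are shown because they are nearly identical in this duplicated pair. They lie before the listed start sites, so they say nothing of how well the probe sets separate the transcripts. Capitals mark the bases that differ, and positions count from 1 at the 5′ end of each stretch. The first lies at chr16:16869256-16869361 on the minus strand, directly before the Vpreb1 start, and the second at chr16:17980315-17980420 on the plus strand, 250 to 145 bases before the listed Vpreb2 start.
Vpreb1: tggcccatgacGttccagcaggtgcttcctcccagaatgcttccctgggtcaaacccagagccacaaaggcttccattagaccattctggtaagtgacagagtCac
Vpreb2: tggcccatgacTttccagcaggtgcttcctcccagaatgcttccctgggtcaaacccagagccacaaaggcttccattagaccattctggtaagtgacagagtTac
The 106 bases shown differed at 2 positions, G12T and C104T (Vpreb1 base first). Over the full 156 bases that both windows cover, 153 were identical (98.1%). The last 50 of the 156 bases lie after the Vpreb1 start but before the listed Vpreb2 start. The 2 transcripts and the probe sequences were not compared with each other, so whether the probe sets of Vpreb1 and Vpreb2 share signal was not tested.

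An octamer, the element bound by the POU factors Oct-1 and Oct-2 in immunoglobulin promoters, was found before the start of 2 of these genes, and the stretches are shown with it in capitals. The Vpreb3 stretch is chr10:75948209-75948299 on the plus strand, and the Blnk stretch is chr19:40994298-40994397 on the minus strand.
Vpreb3: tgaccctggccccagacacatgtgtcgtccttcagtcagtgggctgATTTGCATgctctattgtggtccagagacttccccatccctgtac
Blnk: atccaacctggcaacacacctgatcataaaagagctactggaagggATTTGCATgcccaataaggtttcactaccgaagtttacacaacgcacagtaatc
The match began 45 bases before the start in Vpreb3 and 130 bases before it in Blnk, in the reverse orientation in both. The octamer (ATGCAAAT, both strands) was in 2 of the 9 windows, against 1.74% of 32851 RefSeq windows of the same length. A match is a description of letters and not a bound site.

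**Figure D1:**
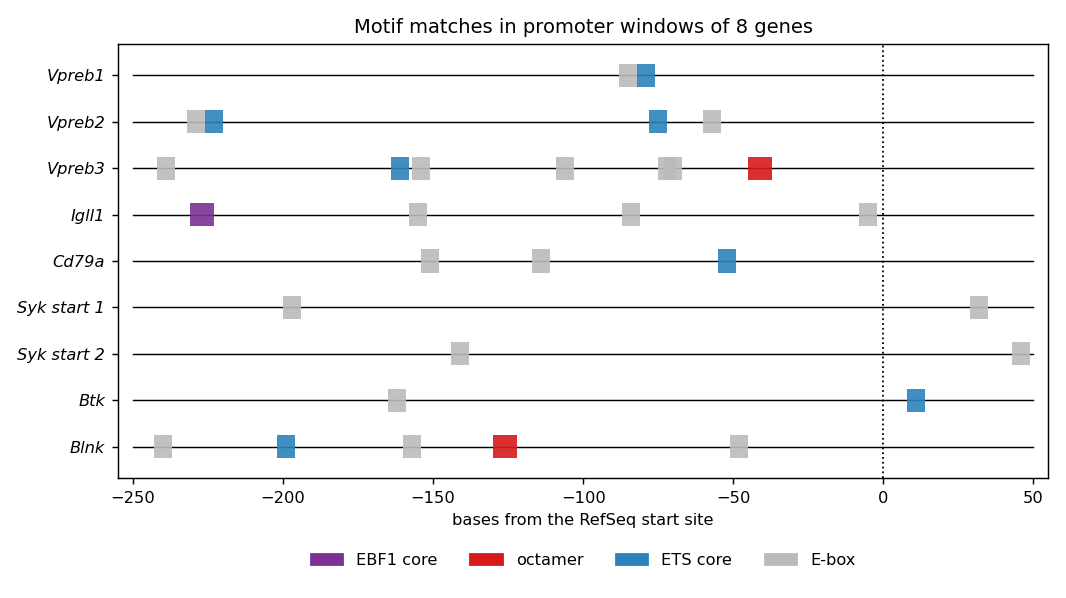
Motif matches on either strand in the 9 promoter windows of 8 genes, by distance in bases from the RefSeq start site (dotted line). The octamer was matched in Vpreb3 and Blnk, the EBF1 core in Igll1, the ETS core in 6 windows and the E-box in all 9.

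The core of the site for EBF1, a factor that opens early B cell genes, was searched as CCCNNGGG and was found in 1 of the 9 windows, that of Igll1, 231 bases before the start. It was in 13.7% of all windows. The ETS core (AGGAAG), recognised by PU.1 and its relatives, was in 6 of 9 windows and in 35.4% of all windows. The E-box (CANNTG), recognised by E2A, was in 9 of 9 and in 72.3% of all windows. Vpreb1 and Vpreb2 are not independent in these counts. Their ETS cores at 82 and 226 bases before the start lie at the same place in the duplicated stretch. So do their E-boxes at 88 and 232 bases. Vpreb2 also had an ETS core (78 bases before the start) and an E-box (60 bases) outside that stretch. The only matches that overlapped each other were 2 E-boxes in Vpreb3. Base content varied among the genes: the first Syk window was 72.0% G and C with 31 CG pairs, while the other 8 windows lay between 48.0% and 58.7% with 1 to 8 CG pairs. The median of all windows was 52.7% with 7 CG pairs.

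The 9 receptor genes showed small differences between Cre and EV, none of which passed the test. The changes, Cre minus EV, ran from -0.19 for Btk to 0.19 for Syk, with 6 above 0 and 3 below. At a limma adjusted p below 0.05, 0 of 9 were called, against 3.49% of all genes. At an unadjusted p below 0.05 there were 3 (Cd79a, Syk and Btk), against 16.1% of all genes. The median of the 9 changes was 0.03, and that of all genes was -0.0027. The median absolute change was 0.09 for the 9 genes and 0.09 for all genes.

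The 95% confidence intervals of the main limma fit give the sizes that this fit leaves room for. Across the 9 genes the lowest bound was -0.35 and the highest 0.36, so that the Cre level was between 0.787 and 1.29 times the EV level at the outer bounds. Each interval covers its own gene only and bounds the array signal, which may differ from the RNA amount. The smallest absolute change called among all 19733 genes was 0.27, and the median of those called was 0.56. Spread between arrays was low: the median pooled SD was 0.04 for the 9 genes, against 0.06 for the 2894 genes of mean level 8 or more and 0.11 for all genes. The main fit pools each gene's spread with that of all genes, whatever their level. The interval widths and the calls therefore also rest on that wider spread. With the trend and robust settings, 2 of the 9 were called.

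**Figure D2:**
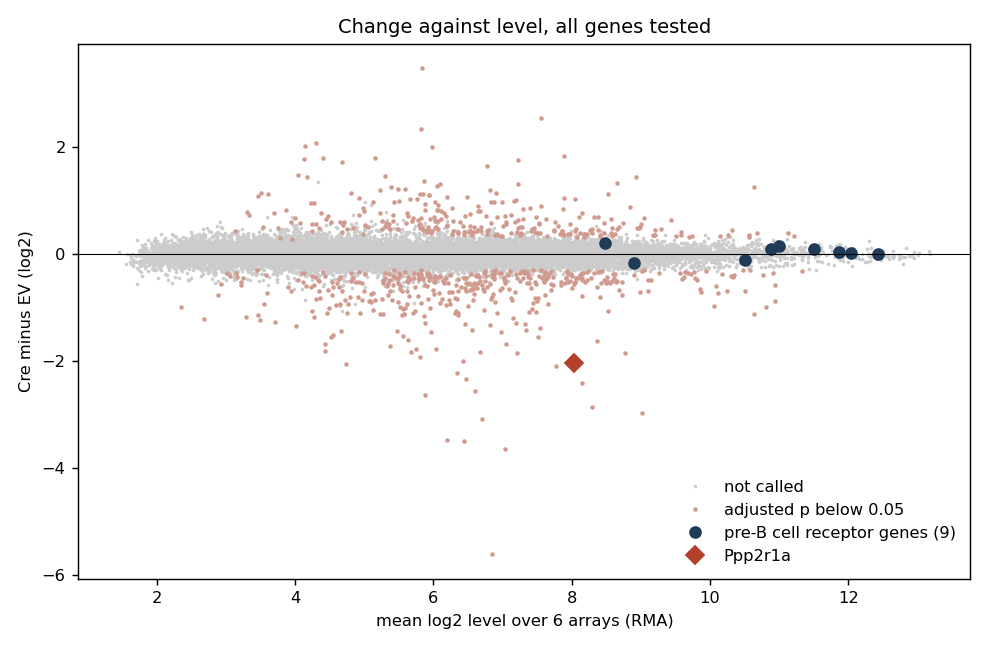
Change (Cre minus EV, log2) against mean log2 level for the 19733 genes tested, with called genes, the 9 pre-B cell receptor genes and Ppp2r1a marked. The receptor genes lie between -0.19 and 0.19 at mean levels above 8, while Ppp2r1a lies at -2.05.

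All 9 genes were bright. Their levels ran from 8.34 to 12.46, in a table whose values ended at 13.47. Of the 2894 genes of mean level 8 or more, 140 were called (4.84%), and of the 187 of mean level 11 or more, 3 were (1.6%). The difference between these shares was not tested, nor was whether bright signal understates a change in RNA. Of the receptor genes, 4 (Vpreb1, Vpreb3, Igll1 and Cd79b) were in that brightest class.

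The 4 genes of the surrogate light chain group, Vpreb3 included, had the 4 smallest absolute changes among the 9. Vpreb1 encodes the V-like part of the surrogate light chain. Its probe set (10438064) read 11.91, 11.92 and 11.83 in Cre arrays, against 11.85, 11.87 and 11.82 in EV arrays. The groups overlapped, and Cre replicate 3 read like EV replicate 3. The change was 0.03 (95% interval -0.11 to 0.18; limma adjusted p = 0.856).

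Igll1 encodes lambda5, the constant-like partner that binds VpreB and the heavy chain. Its probe set (10438060) read 12.04, 12.04 and 12.04 in Cre arrays, against 11.995, 12.094 and 12.024 in EV arrays. The Cre arrays lay inside the range of the EV arrays. The change was 0.0023 (interval -0.14 to 0.15), which put the Cre level at 0.907 to 1.11 times the EV level. Its sign was not stable, with -0.02 without EV replicate 1 and 0.03 without EV replicate 2.

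Vpreb2 is the mouse duplicate of Vpreb1 and codes for a nearly identical protein. Its probe set (10434128) read 10.96, 10.95 and 10.88 in Cre arrays, against 10.82, 10.91 and 10.83 in EV arrays. The groups overlapped through EV replicate 2. The change was 0.08 (interval -0.07 to 0.23; limma adjusted p = 0.616). Cre replicate 3 was the lowest Cre array for Vpreb1 and for Vpreb2 alike, and EV replicate 2 the highest EV array.

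Vpreb3 belongs to the same family but is not part of the surface receptor; its product associates with nascent mu chains inside the cell. Its probe set (10364109) read 12.42, 12.45 and 12.40 in Cre arrays, against 12.46, 12.44 and 12.42 in EV arrays. The groups overlapped, and the change was -0.01 (interval -0.15 to 0.12). With quantile normalization applied again the sign turned, to 0.03. Over the 4 genes of the surrogate light chain group the bounds of the intervals lay between -0.15 and 0.23, or 0.901 to 1.17 times the EV level.

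**Figure D3:**
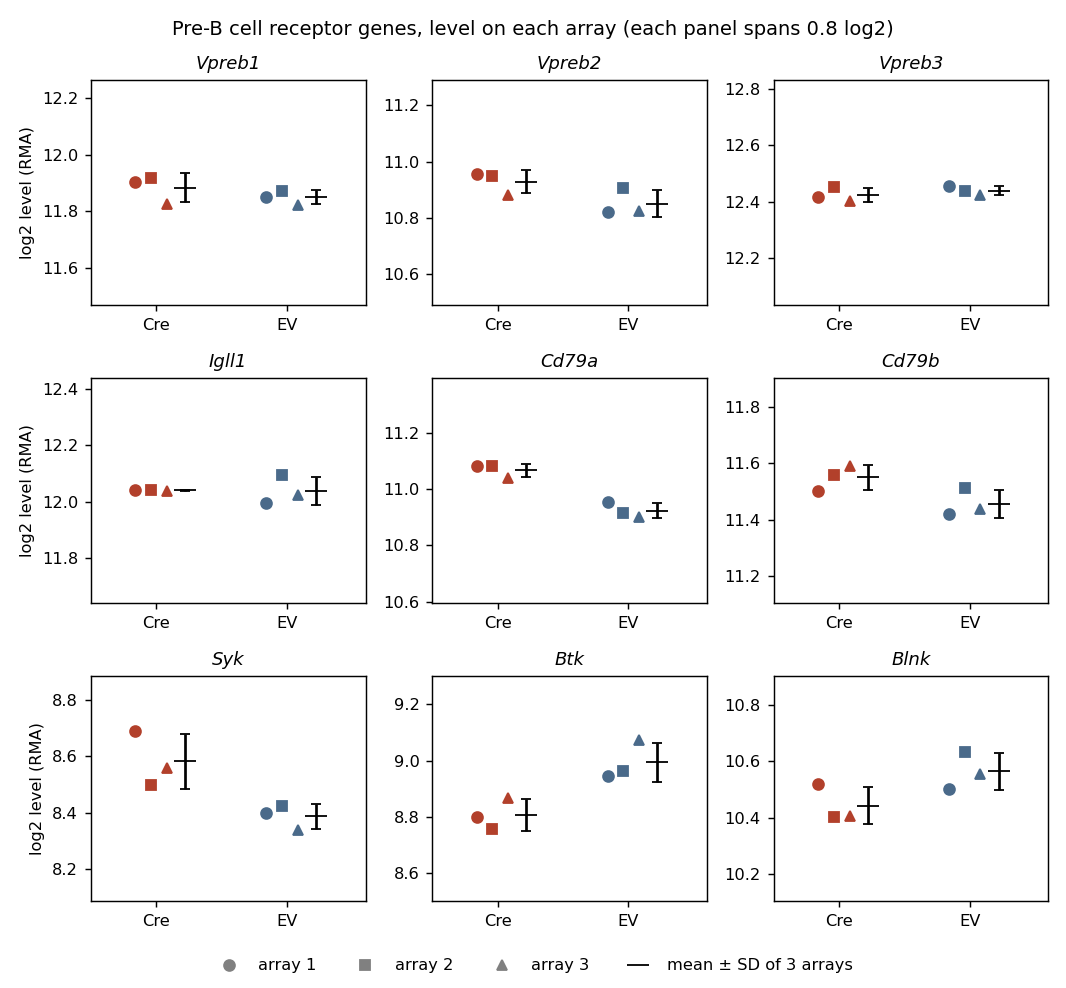
Log2 level of the 9 measured genes on each array, Cre at the left and EV at the right of each panel, with the mean and SD of 3 arrays beside the points. Every panel spans 0.8 log2, and the groups separate for Cd79a, Syk and Btk, whose changes are 0.14, 0.19 and -0.19.

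The signalling chains were slightly brighter in Cre arrays, and neither passed. Cd79a encodes Ig-alpha, which carries the receptor's signal into the cell. Its probe set (10551025) read 11.08, 11.08 and 11.04 in Cre arrays, against 10.95, 10.92 and 10.90 in EV arrays. The 2 groups did not overlap, and every Cre array was higher. The change was 0.14 (SE 0.06; interval 0.0042 to 0.28), 1.10-fold, at a limma adjusted p of 0.296. With limma's trend and robust settings the adjusted p was 0.0147, and in the other 14 settings it was above the threshold.

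Cd79b encodes Ig-beta, the partner of Ig-alpha in the signalling dimer. Its probe set (10392142) read 11.50, 11.56 and 11.59 in Cre arrays, against 11.42, 11.51 and 11.44 in EV arrays. The groups overlapped by 1 array each, Cre replicate 1 and EV replicate 2. The change was 0.09 (interval -0.06 to 0.24; limma adjusted p = 0.554).

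The kinases differed in opposite directions by nearly equal amounts, again without passing. Syk, the kinase that docks on phosphorylated signalling chains, read 8.69, 8.50 and 8.56 in Cre arrays, against 8.40, 8.43 and 8.34 in EV arrays (probe set 10405216). Every Cre array was higher, and Cre replicate 1 stood above the other two. The change was 0.19 (SE 0.07; interval 0.03 to 0.36), 1.14-fold, at a limma adjusted p of 0.240. Without Cre replicate 1 it was 0.14.

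Btk, the Tec-family kinase that activates phospholipase C gamma 2, read 8.80, 8.76 and 8.87 in Cre arrays, against 8.94, 8.96 and 9.07 in EV arrays (probe set 10606694). Every Cre array was lower. The change was -0.19 (SE 0.07; interval -0.35 to -0.03), with the Cre level at 0.879 times the EV level and a limma adjusted p of 0.235. With the trend and robust settings the adjusted p was 0.0436.

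Blnk, the adaptor that joins SYK to BTK and phospholipase C gamma 2, read 10.52, 10.40 and 10.41 in Cre arrays, against 10.50, 10.63 and 10.56 in EV arrays (probe set 10467508). The groups overlapped through Cre replicate 1 and EV replicate 1. The change was -0.12 (interval -0.28 to 0.04; limma adjusted p = 0.468), and the Cre level was between 0.822 and 1.03 times the EV level.

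Groups that did not overlap were seen for 3 of the 9 genes (33.3%), 2 higher and 1 lower in Cre, against 22.5% of all genes. With the trend and robust settings 2 of the 9 were called (Cd79a and Btk), against 7.9% of all genes. In the other 14 settings tried, those with 1 array left out included, 0 of the 9 were called.

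The 3 genes whose pattern over the 6 arrays was most like that of Syk, the gene with the largest absolute change, were Epc1 (Pearson r = 0.997), Anapc10 (0.990) and Psd (0.990). All 6 points share 2 groups, and 256 genes had an r above 0.9. Their own changes were 0.06, 0.16 and 0.17, and none passed the limma test.

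Other kinases of the same families did not pass either. Of 12 entries of Src, Syk and Tec family kinases, 9 were measured and 0 were called in limma, against 3.49% of all genes. At an unadjusted limma p below 0.05 there were also 0, against 16.1% of all genes. The changes ran from -0.17 to -0.0027, with a median of -0.07. Fyn, a Src-family kinase, read 8.39, 8.08 and 8.19 in Cre arrays, against 8.39, 8.48 and 8.29 in EV arrays, and differed by -0.17 (interval -0.39 to 0.06). Txk, a Tec-family kinase, was dim, at 3.80 ± 0.15 in Cre arrays and 3.90 ± 0.10 in EV arrays (SD, n = 3 each).

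Downstream of the receptor several genes rose. Of 18 measured effectors and co-receptors, 5 rose, 0 fell and 13 did not pass, with a median of 0.09. The changes ran from -0.50, which did not pass, to 1.13. At an unadjusted limma p below 0.05 there were 9 of 18, against 16.1% of all genes. Of all genes, 1.35% rose and 2.14% fell. Bank1, a scaffold protein of B cells, rose 2.19-fold, and Rasgrp3, which activates RAS in response to diacylglycerol, 1.69-fold. Pik3ap1, which recruits PI3 kinase, rose 1.68-fold, and Plcg2, the phospholipase that BLNK and BTK activate, 1.29-fold. The fifth was the exchange factor Vav2 (1.27-fold), named after its values were seen.

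Rasgrp3 read 5.65, 5.36 and 5.81 in Cre arrays, against 4.55, 5.05 and 4.94 in EV arrays, a change of 0.76 (SE 0.16; limma adjusted p = 0.0432). Plcg2 read 8.004, 7.987 and 8.036 in Cre arrays, against 7.724, 7.618 and 7.588 in EV arrays, a change of 0.37 (SE 0.07; limma adjusted p = 0.026). The groups did not overlap for either gene. Bank1 and Pik3ap1 passed with any 1 array left out. Rasgrp3 passed only without Cre replicate 2 and Plcg2 only without EV replicate 1 (highest limma adjusted p 0.137 and 0.0944), and Vav2 in 0 of the 6 fits (highest 0.161). Rasgrp3 and Vav2 also missed the threshold when every probe set was tested (0.0596 and 0.0516), and Vav2 with array weights (0.0501).

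Among the brakes on receptor signalling, 2 of 15 measured genes rose and 0 fell, with a median of 0.04. At an unadjusted limma p below 0.05 there were 3 of 15, against 16.1% of all genes. Cd72, an inhibitory co-receptor, rose 2.08-fold with Cre arrays at 7.03, 7.02 and 7.01 and EV arrays at 5.99, 6.05 and 5.84. Dok3, an inhibitory adaptor, rose 1.30-fold, and passed only without EV replicate 3 when 1 array was left out (highest limma adjusted p = 0.0737).

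Of 15 transcription factors that act on early B cell genes, 2 rose, 2 fell and 11 did not pass, with a median of 0.08. At an unadjusted limma p below 0.05 there were 9 of 15, against 16.1% of all genes. Spi1, which encodes PU.1, read 8.13, 8.12 and 8.15 in Cre arrays, against 7.72, 7.70 and 7.85 in EV arrays, and rose 1.29-fold. Its relative Spib rose 1.40-fold. Runx1 read 8.94, 8.90 and 8.84 in Cre arrays, against 9.22, 9.18 and 9.17 in EV arrays, and fell by 0.30 on the log2 scale. Myc fell 2.00-fold.

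These calls were narrow. With 1 array left out, Spi1 passed only without EV replicate 3 (highest limma adjusted p = 0.0923) and Runx1 in 0 of 6 fits (0.138). Spib kept its call only without Cre replicate 3 or without EV replicate 1 (0.068). Myc kept its call only without Cre replicate 2 or without Cre replicate 3 (0.0662). Runx1 also missed the threshold with median centring (adjusted p = 0.0564). Ebf1, named after its values were seen because its motif is described above, differed by -0.24 (10.15 ± 0.03 in Cre and 10.39 ± 0.04 in EV; SD, n = 3 each; limma adjusted p = 0.0865).

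**Figure D4:**
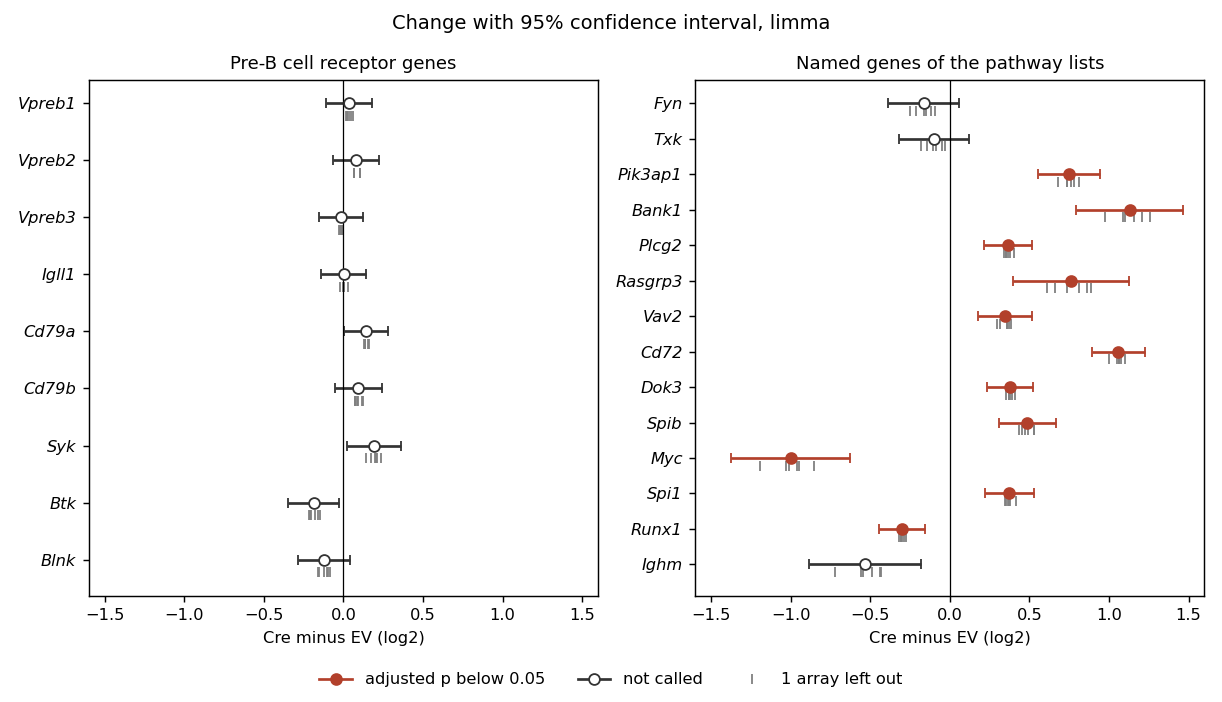
Change (Cre minus EV, log2) with its 95% confidence interval for the 9 receptor genes (left) and the named genes of the pathway lists (right), with grey ticks for the fits that leave out 1 array. The receptor genes stay within -0.35 and 0.36, bounds included, while Bank1 is at 1.13 and Cd72 at 1.06.

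The mu heavy chain completes the receptor, and Ighm was the 1 measured gene of 6 constant region entries. Of its 3 probe sets the brightest (10402991) read 5.64, 5.77 and 5.75 in Cre arrays, against 6.44, 6.45 and 5.88 in EV arrays. Every Cre array was lower, and EV replicate 3 lay close to them. The change was -0.53 (SE 0.15, limma adjusted p = 0.123). With 1 array left out it passed in 1 of 6 fits, without EV replicate 3 (-0.72, limma adjusted p = 0.00824). The highest limma adjusted p of these fits was 0.286. The other probe sets differed by -0.10 (10402864) and -0.77 (10403069), the last at levels of 2.21 to 2.46 in Cre arrays and 2.92 to 3.25 in EV arrays. When each probe set was tested on its own, 10403069 passed (limma adjusted p = 0.0135). It was dim, with every level below the lowest array median (5.22). The part of the locus that each probe set covers is not known here.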

How the data were processed

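Expression was measured on 6 one-colour Affymetrix arrays, 3 Cre and 3 EV, grouped by title. The deposited values are log2 levels per probe set, made by the authors with RMA (background correction, quantile normalization, probe summary), per the submitters' processing notes; the version used is unknown here. Quantile normalization hides a shift of the whole transcriptome, and the number of arrays limits precision. Array medians lay between 5.22 and 5.27. Of 25006 probe sets, 21467 had 1 gene symbol, 1521 several and 2018 none in the platform annotation; 21386 of the first were matched by gene identifier to RefSeq (GRCm38.p6). The brightest probe set per gene was kept, which left 19733 genes. Cre was compared with EV in limma 3.58.1 (R 4.3.3; no block, no filter), Benjamini-Hochberg over all genes, threshold 0.05. Tables and plots used Python 3.11.15, pandas 2.3.3 and matplotlib 3.10.9. The fit was tested on simulated data first. The alternatives were a replicate block, other normalizations, filters, spread models and probe choices, and each array left out.

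The genes and lists were chosen with earlier results of these data known. The text names all members, Ppp2r1a, up to 4 called genes with the smallest p per pathway list (otherwise the 2 with the smallest p) and the 3 genes most like the member of largest absolute change; others were named after their values were seen. Motifs and brightness classes were also chosen then. Over all genes tested, deviations from the group means of arrays with equal repeat numbers correlated at 0.01, -0.01 and 0.03. Such values cannot show whether equal numbers share a culture.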

Additional observations from a re-analysis of the deposited data

How the results depend on the processing

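The count of 0 called receptor genes held in 14 of 15 alternative settings and was 2 with limma's trend and robust settings. Of 135 values for the 9 genes, 130 kept their direction and side of the threshold, 2 became calls (Cd79a and Btk, trend and robust) and 3 changed sign: Vpreb3 was 0.0281 with quantile normalization again, and Igll1, with 1 array left out, ranged from -0.0190 to 0.0305. The change of Ppp2r1a stayed called in every setting. The count of called genes was 1295 without the lowest 50% of genes by level (fewer genes tested), 1558 with trend and robust settings and 425 with the repeat number as a replicate block; with 1 array left out it ranged from 362 to 424. The block called 0 receptor genes. With it Plcg2 (limma adjusted p = 0.0862), Rasgrp3 (0.0883), Vav2 (0.135), Dok3 (0.0678), Spi1 (0.0762) and Runx1 (0.117) missed the threshold. Whether equal numbers share a culture is not known here. For the 11 called genes of the pathway lists, 114 of 164 values kept the call and 50 lost it; for the 3 named but not called, 39 of 43 stayed uncalled and 4, all for Ighm, passed; 0 changed sign. The median change of all genes was -0.0027, and 0.0015 with median centring and 0.0078 with quantile normalization again. Signal was above the array medians for all 9 genes on every array. The cause of these differences between settings was not tested.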

Other observations

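Light chain constant genes, which replace the surrogate light chain once a B cell has rearranged a light chain, were measured by probe sets shared with variable segments, so they entered no comparison of single genes. The probe set shared by Iglv1, Iglc1 and Iglv2 (10438405) read 6.42, 6.68 and 6.84 in Cre arrays, against 5.94, 5.46 and 5.27 in EV arrays. Every Cre array was higher, and the change was 1.09 (SE 0.18; limma adjusted p = 0.0274 over all 25006 probe sets), 2.13-fold. The probe sets that include Igkc differed by 0.00 (10545184) and 0.02 (10545196), and the Cre and EV arrays overlapped for both. Both were dim, at 4.51 to 5.02 (10545184) and 4.97 to 5.19 (10545196), below the lowest array median (5.22). At such levels a change in Igkc RNA could be missed. Which of the genes on the shared lambda probe set gives its signal was not tested.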
